A study of Mus musculus with 76 samples.

Results

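CTCF binding was compared between humanized and wild type mouse diencephalon late in embryonic development (E17.5), outside chromosome 13. The comparison used 6 CTCF ChIP-seq peak lists, 3 per genotype, of the 76 samples of the series. From each list the 52739 peaks with the highest -log10 q were taken, as many as the shortest list held, and peaks that overlapped by at least 1 bp were merged. This gave 69191 CTCF regions. Of these, 38998 were called in all 6 lists, 179 in the 3 humanized lists and in 0 of 3 wild type lists (humanized-only), and 266 in the 3 wild type lists and in 0 of 3 humanized lists (wild type-only).

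The humanized mice were homozygous for a human sequence holding the enhancer hs754, placed by CRISPR/Cas9 editing at the matching mouse locus on chromosome 13. The line was made in C57BL/6J embryos and backcrossed to C57BL/6J. Controls were homozygous wild type mice of the C57BL/6J strain, from crosses of their own. Each replicate was the diencephalon of 3 embryos pooled from 1 litter, so each litter stands for 1 genotype. No other allele or treatment was named for these groups. The study also profiled the genotypes by RNA-seq and histone modification ChIP-seq at E11.5 and E17.5, of which the E17.5 data are used below.

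CTCF is a zinc finger protein that binds DNA at a long, conserved motif. It halts the cohesin complex as cohesin extrudes chromatin loops, so pairs of CTCF sites often mark the ends of loops and the borders of topological domains. Most strong CTCF sites are occupied in many tissues, in the brain as elsewhere. CTCF insulates enhancers from promoters at imprinted loci and Hox clusters, and clustered protocadherin genes use it in promoter choice.

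The following sequences were read from the GRCm39 (mm39) genome around peak summits, to show DNA with and without a core match. They were picked for this after the matches were known, and of the 11 strongest regions read over the classes 5 held the core. Capitals mark a match to a CTCF core, CCNNNAGNNGGC, searched on both strands within 100 bp of the summit. The sequence is written on the strand that carries the match. A sequence with no capitals is centred on a summit that had no match in that window. Matches had to be exact, with no mismatch allowed, so such a sequence can hold a near match. Of the regions called in all lists, 55.0% held no match. The first pair are from the regions called in all 6 lists, of which 2 of the 3 strongest read held the core. The third, near Ddr1, had no match and is not shown.
Gdf15 region, chr8:71082521-71082582, minus strand: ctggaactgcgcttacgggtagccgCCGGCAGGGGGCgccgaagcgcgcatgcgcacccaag
Ppp1r1b region, chr11:98233588-98233649, plus strand: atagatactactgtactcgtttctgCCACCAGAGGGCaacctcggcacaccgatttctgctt
The next are from the humanized-only regions, of which 2 of the 4 strongest read held the core. Among them the region near Pou3f1 had the highest fold enrichment and the region near Abhd2 the next.
Pou3f1 region, chr4:124556969-124557030, minus strand: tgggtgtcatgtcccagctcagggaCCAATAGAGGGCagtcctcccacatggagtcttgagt
Abhd2 region, chr7:78905639-78905700, plus strand: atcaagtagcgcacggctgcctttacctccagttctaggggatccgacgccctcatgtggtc
Prickle2 region, chr6:92685310-92685371, minus strand: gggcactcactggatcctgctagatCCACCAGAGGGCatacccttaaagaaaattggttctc
The next are from the wild type-only regions, of which 1 of the 4 strongest read held the core. Among them the region nearest to Ins1 had the highest fold enrichment.
Ins1 region, chr19:52195491-52195552, plus strand: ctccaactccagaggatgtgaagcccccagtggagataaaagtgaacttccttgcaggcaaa
Hgd region, chr16:37393593-37393654, minus strand: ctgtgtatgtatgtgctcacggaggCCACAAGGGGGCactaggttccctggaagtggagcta
The last pair are from the shared regions with the lowest p-value in each direction in the test of fold enrichment.
Tra2b region, chr16:22129570-22129631, plus strand: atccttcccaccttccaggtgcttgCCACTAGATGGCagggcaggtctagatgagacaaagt
Fndc1 region, chr17:8040821-8040882, plus strand: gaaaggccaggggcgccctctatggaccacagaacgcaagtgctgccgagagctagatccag
The Pou3f1 and Prickle2 sequences thus carry the core although no wild type list called them among its 52739 peaks. Genes here name the nearest start of a protein-coding transcript and imply no regulation.

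Outside chromosome 13, the wild type lists held 75549, 59155 and 61782 CTCF peaks, and the humanized lists held 55883, 52739 and 57554. All 3 humanized lists were shorter than all 3 wild type lists, with means of 55392 ± 2445 (SD, n = 3) against 65495 ± 8805 (SD, n = 3). The two-sided exact permutation test gave p = 0.1, the smallest that 3 lists against 3 can give, and the adjusted p over 6 list measures was 0.6. The first wild type library stood apart, with the longest list and a median fold enrichment over local background of 17.0 at regions called in all lists, against 12.6 to 14.2 in the other libraries. Peak lists give no read depth, so the depth behind a peak and its part in these numbers were not tested. Because lists differed in length, equal numbers of peaks reached different strengths: the weakest peak used had a -log10 q of 8.57, 4.70 and 6.02 in the wild type lists and 4.57, 1.36 and 3.95 in the humanized lists. The strongest peak left out had the same value to the digits given, except that the second humanized list was used whole.

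**Figure D1:**
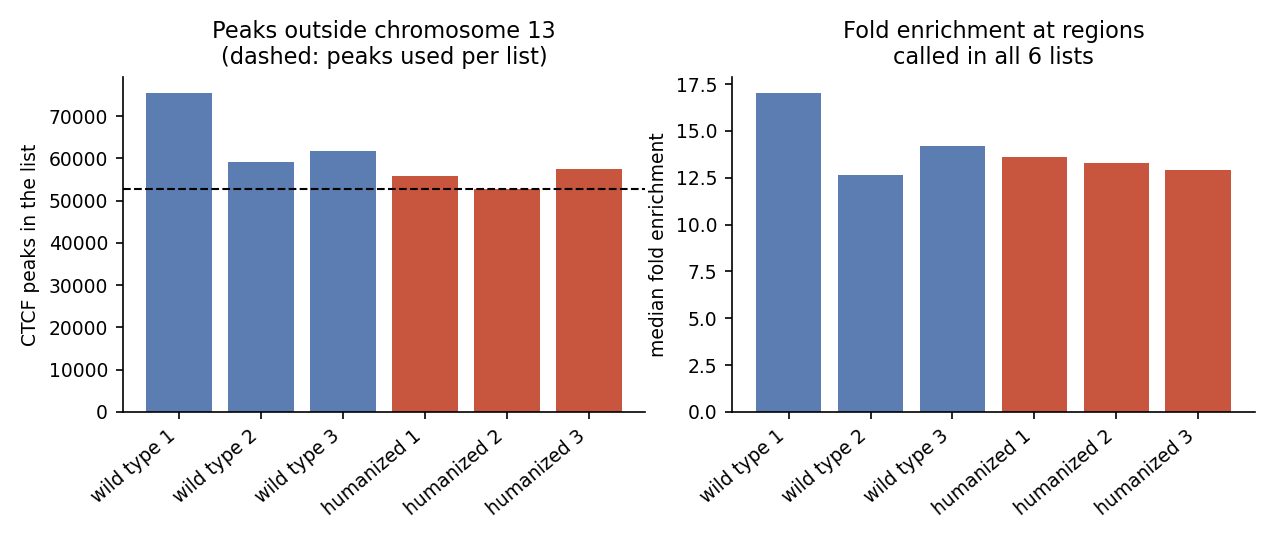
Number of CTCF peaks outside chromosome 13 in each list (left, with the 52739 peaks used per list as a dashed line) and median fold enrichment at the regions called in all 6 lists (right), for 3 wild type and 3 humanized libraries. The first wild type library is highest in both panels, and the 3 humanized lists are the shortest.

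Pairs of lists were compared within and between genotypes. The share of peak regions in common was 76.5% to 78.6% for pairs within a genotype and 75.7% to 79.2% for pairs between genotypes. Across the shared regions, which are not independent replicates, the log2 fold enrichment of pairs of lists had a Pearson correlation of 0.901 to 0.908 within genotypes and of 0.901 to 0.907 between them. Of the regions that were not called everywhere, 11099 were called in 1 list, and 5721, 4394, 4081 and 4898 were called in 2, 3, 4 and 5. The exclusive regions were 445 of 69191 (0.643%), beside 958 regions called in all wild type lists and 1 humanized list and 709 called in all humanized lists and 1 wild type list.

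**Figure D2:**
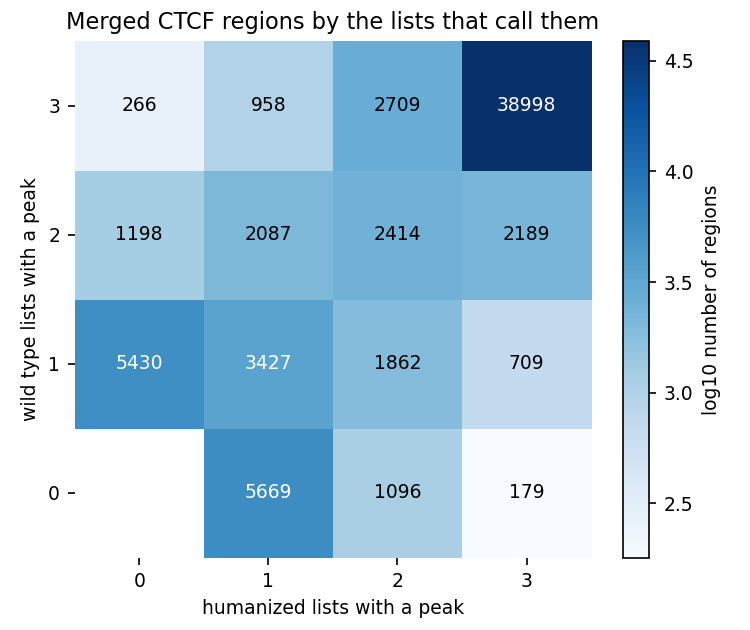
Number of merged CTCF regions by how many of the 3 humanized lists (horizontal axis) and of the 3 wild type lists (vertical axis) call them, with colour on a log10 scale. The corner of 38998 regions holds those called in all lists, and the 179 humanized-only and 266 wild type-only regions are the smallest 2 cells.

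The exclusive regions were weak beside the shared regions. Their mean fold enrichment, which the choice of peaks by q-value partly sets, had a median of 4.78 (range 3.74 to 6.67) for humanized-only and 5.30 (range 4.37 to 7.33) for wild type-only regions, against 14.1 (range 1.90 to 75.7) for regions called in all lists. Among the 25185 regions with a mean fold enrichment of 10 or more, 25179 were called in all 6 lists and 0 were exclusive. Among the 4651 with a mean of 8 to 10, 98.3% were called in all lists and 0 were exclusive. Of the 445 exclusive regions, 400 fell between 4 and 6, where 9.72% of 27839 regions were called in all lists. Where the exclusive regions fell depended on how many peaks were taken. With the 26369 strongest peaks of each list their median fold enrichment was 10.7 (range 8.88 to 12.5) and 11.8 (range 10.3 to 13.8), against 24.8 for regions called in all lists. At 52739 peaks, exclusive regions were also short, with a median of 337 bp and 346 bp against 707 bp.

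Few humanized-only regions lacked a wild type peak altogether. When the complete lists were searched, 14 of the 179 had no wild type peak, and 74, 69 and 22 had a peak in 1, 2 and 3 wild type lists below the ranks used. The first wild type list, the longest, held a peak at 151 of them, with a median fold enrichment of 4.17, against 4.61, 4.61 and 4.68 in the humanized lists. The other wild type lists held peaks at 50 and 77. Of the 266 wild type-only regions, 209 had no peak in the complete humanized lists, 50 had a peak in 1 and 7 in 2. The second humanized list had no further peaks to give, so these counts rest on the other two.

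The count also turned with the choice of peaks. With all peaks of each list, 23 regions were humanized-only and 1089 wild type-only, and with all peaks of a -log10 q of at least 5 the counts were 22 and 814. With the 26369 strongest peaks of each list the counts were 56 and 60. Without the first wild type library they were 455 and 662, against 179 and 266 with it, since 2 lists in place of 3 then decide the wild type side. Under each of these choices more regions were wild type-only than humanized-only, by 4 regions at 26369 peaks per list. Presence in the lists allowed no test of a single region, because Fisher's exact test of 3 lists against 3 cannot give a p below 0.1. In limma's fit on all peaks, which takes regions with a peak in every complete list, 0 of 41658 regions were called.

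Of the 14 humanized-only regions with no wild type peak at any rank, the strongest was the region near Pou3f1 (chromosome 4, 124556840 to 124557193, intergenic). Pou3f1 encodes a POU domain transcription factor of the nervous system. The fold enrichment was 6.57, 6.40 and 7.03 in the humanized lists (6.67 ± 0.327, SD, n = 3). The summit lay 6394 bp from the gene start, 6 bp from a core match, inside an H3K27me3 region and 12033 bp from the nearest region called in all lists. Of the others, a region in an exon at 0610030E20Rik (chromosome 6, 72324660 to 72324913) lay 472 bp from its start and overlapped H3K4me3 and H3K27ac, with values of 6.14, 5.38 and 4.61. A region in an intron of Dcdc2c (chromosome 12, 28589939 to 28590260), which encodes a doublecortin domain protein, had 4.83, 7.16 and 4.96. Regions in introns of Ccdc149, Apba2, Larp4, Nfkbid, Anxa6 and Tenm2 had means of 4.06 to 5.14. Apba2 encodes an adaptor of the amyloid precursor protein and Tenm2 a teneurin of neuronal adhesion. Pou3f1 RNA had a log2 fold change, humanized against wild type, of -0.69 (edgeR quasi-likelihood test, adjusted p = 0.808). The 14 were singled out after the lists had been seen.

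The 10 humanized-only regions with the highest fold enrichment had means of 5.73 to 6.67. After Pou3f1 and Abhd2, which encodes a lipid hydrolase, they lay nearest to the starts of Napb, Prickle2, L1td1, Ndufv3, Mcf2l, Zc3h12a, Prrc1 and Rnf214. The region at Napb (chromosome 2, 148574135 to 148574562), which encodes a SNAP protein of synaptic vesicle fusion, was the only promoter among them, with its summit 11 bp from the gene start in an exon and under H3K4me3 and H3K27ac. Its humanized values were 7.45, 4.52 and 6.06, and its wild type peaks of 4.26, 3.40 and 3.95 fell below the ranks used. The class rule itself favours lower wild type values, and fold enrichment is not scaled between lists. The region near Prickle2, a planar polarity gene expressed in neurons, lay 2104 bp from the gene start (chromosome 6, 92685162 to 92685499, intergenic). It had 5.70, 6.50 and 5.78, with 1 wild type peak of 4.56. Of these 10 regions, 7 held the core and 9 had a peak in at least 1 complete wild type list. The RNA of the 8 nearest genes that were tested had log2 fold changes of -0.69 to 0.18, with a lowest unadjusted p of 0.0567 in edgeR's test.

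The 10 strongest wild type-only regions had means of 6.54 to 7.33 and lay near Ins1, Bhlhe23, Vstm2l, Hgd, Ephb3, Lrriq3, Ak4, Pak2, Atp8b1 and Hrob. The region nearest to Ins1, an insulin gene, was 57213 bp from its start (chromosome 19, 52195341 to 52195717, intergenic). Its values were 9.66, 5.59 and 6.73 in the wild type lists, with a peak of 3.33 in humanized list 3. The region near Bhlhe23, a gene of neuronal subtype specification, lay 12261 bp from the gene start (chromosome 2, 180430750 to 180431193), overlapped H3K27ac and had 7.73, 7.05 and 6.73. The region nearest to Hgd (chromosome 16, 37393467 to 37393782) lay in an exon of Rabl3 and had 10.4, 4.76 and 5.80, with the highest value in the first wild type library. Regions in introns of Vstm2l, Pak2 and Atp8b1 had means of 7.07, 6.68 and 6.54. In 8 of the 10, no humanized list held a peak at any rank. Humanized lists held fewer peaks below the ranks used than wild type lists, which limits that count. The core was held by 4 of the 10. The 8 nearest genes that were tested had RNA log2 fold changes of -0.44 to 0.54, with a lowest unadjusted p of 0.111 in edgeR's test.

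**Figure D3:**
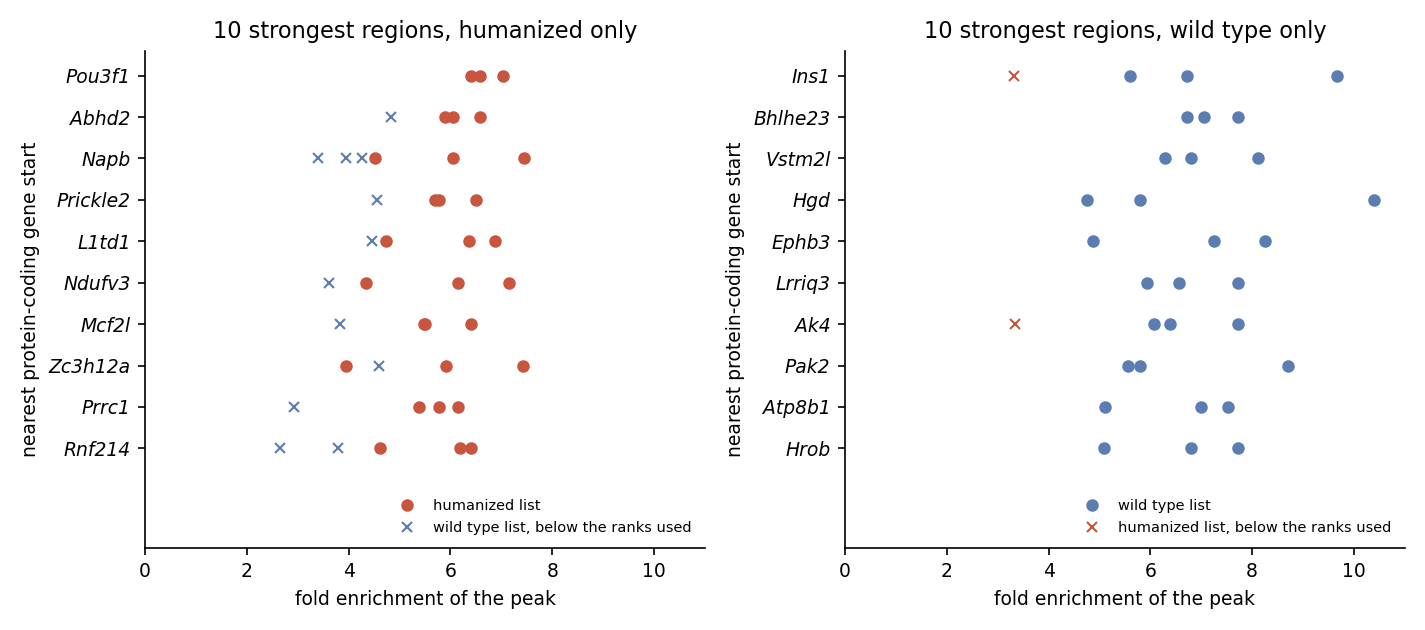
Fold enrichment of the 10 strongest humanized-only (left) and wild type-only (right) CTCF regions, named by the nearest protein-coding gene start, with 1 point per list. Crosses are peaks of the other genotype found only below the ranks used: 9 of 10 humanized-only regions have at least 1, against 2 of 10 wild type-only regions. Wild type lists held 22810, 6416 and 9043 peaks below those ranks and humanized lists 3144, 0 and 4815, so these counts are not comparable.

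Gene starts, histone modifications and base composition were not used to define the classes. A summit within 1 kb of a gene start was found for 32 of 179 humanized-only regions (17.9%, 95% Wilson interval 12.96 to 24.1) and 28 of 266 wild type-only regions (10.5%, 7.38 to 14.8), against 14.0% of regions called in all lists and 14.2% of all regions. The intervals cover counting error only, overlap between the exclusive classes, and take regions as independent. With all peaks the order turned, to 2 of 23 humanized-only regions (8.70%) and 151 of 1089 wild type-only regions (13.9%). The median distance to a gene start was 17113 bp, 24957.5 bp and 18600 bp for humanized-only, wild type-only and regions called in all lists. Summits in introns made up 60.9% and 61.7% of the exclusive classes and 53.3% of the regions called in all lists. Intergenic summits made up 18.99%, 22.2% and 28.3%.

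H3K27ac is a mark of active enhancers and promoters. The paper reports that its antibody lot for this mark also bound an acetylation of histone H2B. H3K27ac was assigned where at least 4 of 6 E17.5 lists called it. It overlapped 57 humanized-only regions (31.8%, 25.5 to 39.0) and 41 wild type-only regions (15.4%, 11.6 to 20.2), against 25.8% of regions called in all lists. H3K4me3, a mark of promoters, overlapped 22.9% (17.4 to 29.6) and 12.8% (9.29 to 17.3), against 22.1%, and with all peaks 21.7% and 20.4%. H3K27me3, which marks Polycomb-repressed chromatin, overlapped 8.94% and 7.52%, against 12.7%. The H3K27ac intervals of the exclusive classes did not overlap. This difference went with the choice of peaks: with all peaks, H3K27ac overlapped 6 of 23 humanized-only regions (26.1%) and 280 of 1089 wild type-only regions (25.7%), and with 26369 peaks per list the shares were 28.6% and 23.3%. The marks themselves were called in both genotypes at these regions. At the humanized-only regions, 59, 58 and 63 carried an H3K27ac peak in the wild type lists and 54, 57 and 50 in the humanized lists. At the wild type-only regions the counts were 37, 39 and 41 in wild type and 34, 38 and 28 in humanized lists.

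The core motif was found at 49 humanized-only regions (27.4%, 21.4 to 34.3) and 59 wild type-only regions (22.2%, 17.6 to 27.5), against 45.0% of regions called in all lists, 37.3% of all regions and 23.8% of regions called in a single list. In windows of the same 201 bp placed 1 kb from the summit, 3.35%, 3.38% and 3.56% of humanized-only, wild type-only and shared regions held it. The interval of each exclusive class lay above the shares in nearby sequence and below the share in shared regions. With 26369 peaks per list, where exclusive regions were stronger, the core was found at 53.6% and 48.3% of them and at 50.7% of regions called in all lists. The median GC content around the summit was 49.3%, 46.0% and 48.8% for humanized-only, wild type-only and shared regions.

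**Figure D4:**
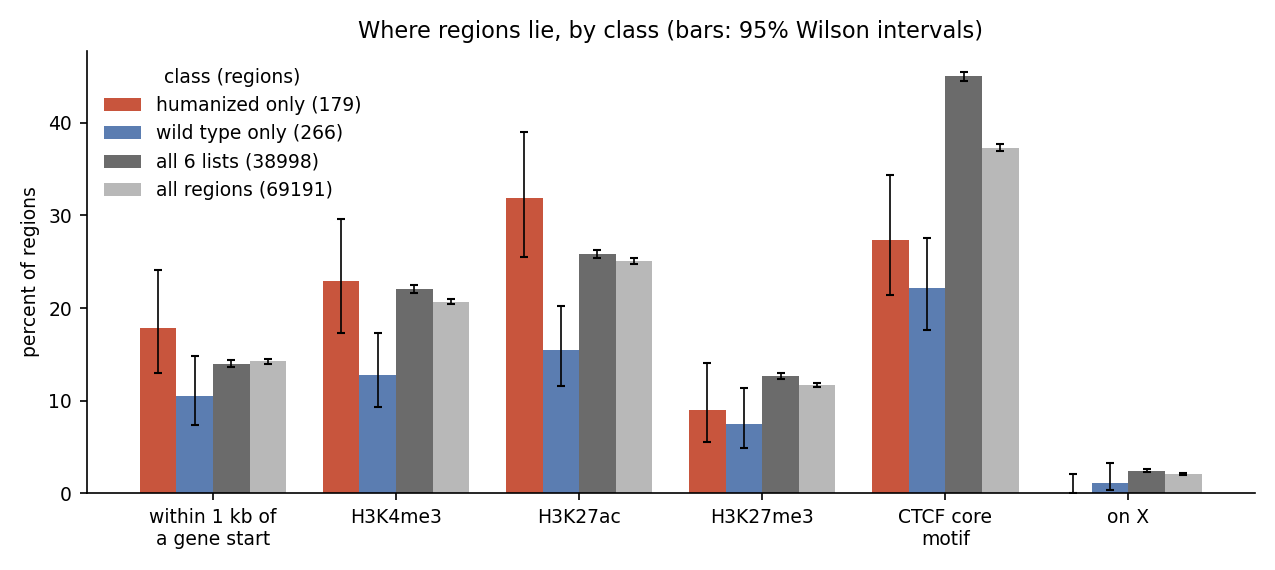
Percent of regions near a gene start, overlapping each histone modification, holding the CTCF core motif or on the X chromosome, for humanized-only, wild type-only, shared and all regions, with 95% Wilson intervals. H3K27ac overlap is 31.8% for humanized-only and 15.4% for wild type-only regions, and the core motif is less frequent in both exclusive classes than in regions called in all lists.

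Exclusive regions were spread over the autosomes. Chromosome 4 held 21 humanized-only regions (11.7% of them) and 20 wild type-only regions (7.52%), against 6.95% of all regions. Chromosome 12 held 17 (9.497%) and 10 (3.76%), against 4.32%, and chromosome 7 held 17 and 10, against 6.70%. Chromosome 1 held 3 humanized-only and 21 wild type-only regions (1.68% and 7.89%), against 6.83%. On the X chromosome, 0 of 179 humanized-only regions were found, which allows a share of up to 1.68% by a floor of 3 counts and up to 2.10% by the Wilson interval. The X chromosome held 3 of 266 wild type-only regions, 2.41% of the regions called in all lists and 2.09% of all regions. The median distance from an exclusive region to the nearest region called in all lists was 10392 bp for humanized-only and 13571.5 bp for wild type-only regions, against 10717 bp between shared regions themselves.

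The regions called in all 6 lists held the strong sites. The strongest lay at Gdf15, which encodes a stress-induced cytokine (chromosome 8, 71081810 to 71083679, exonic). Its fold enrichment was 88.5, 78.6 and 80.9 in the wild type lists and 66.6, 84.6 and 55.1 in the humanized lists, and the groups overlapped. The next were near Ppp1r1b, which encodes the dopamine signalling protein DARPP-32 (77.1 ± 10.1 in wild type and 69.4 ± 13.01 in humanized, SD, n = 3), and near the receptor kinase gene Ddr1 (73.1 ± 15.9 and 71.6 ± 1.37, SD, n = 3). Regions 68 bp from the start of the chaperone gene Dnajc11 and 20449 bp from that of the potassium channel gene Kcnk18 followed, with means over all lists of 71.1 and 70.4. Among shared regions, those holding the core had a median fold enrichment of 17.2 and those without it 12.2. Regions under H3K27me3 had 16.6, under H3K4me3 15.6, under H3K27ac 15.0 and under no mark 13.3.

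No shared region passed the test of fold enrichment between genotypes. On log2 values centred on each list's median, limma called 0 of 38998 regions at an adjusted p under 0.05, and the lowest adjusted p was 0.983. At an unadjusted p under 0.05, 950 regions were higher and 854 lower in the humanized mouse, 4.63% of those tested. Centring sets this balance: without it 194 were higher and 1762 lower, with a median difference of -0.12. The humanized and wild type values did not overlap in 2048 regions that were higher and 1803 that were lower, 9.87% of those tested. After centring the median difference was 0.00, and the middle 90% of regions lay between -0.42 and 0.42 on the log2 scale. A difference over 1 in either direction was seen in 8 regions. The median 95% interval, which is not adjusted for the number of regions, reached 0.50 to either side. Differences below that size could not be resolved at a typical region, and larger ones need not pass the adjusted test. The share at an unadjusted p under 0.05 was 5.14% at gene starts, 5.05% under H3K27ac, 5.24% under H3K27me3, 4.40% under no mark and 1.17% of the 938 X-linked regions.

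The regions with the lowest p-values are given as values. An intergenic region near Tra2b, a splicing regulator (chromosome 16, 22129002 to 22130006), had 16.4, 15.6 and 14.9 in wild type and 27.5, 27.1 and 30.8 in humanized lists, a log2 difference of 0.99 (SE 0.21). A region in the host transcript Mir670hg (chromosome 2, 94075201 to 94076372), whose nearest gene start was that of Hsd17b12, had 22.4, 20.9 and 25.1 against 41.9, 41.2 and 37.9. A region in an intron of Mbnl1, another splicing regulator (chromosome 3, 60508855 to 60509844), had 26.5, 24.0 and 15.7 against 40.5, 39.7 and 42.2. In each of these the groups did not overlap, as in 9.87% of all regions tested, and picking by p-value favours such regions. In the other direction, a region in an exon where Fndc1 and Gm65382 overlap (chromosome 17, 8040433 to 8041417) had 44.9, 33.3 and 34.5 in wild type lists. It had 15.2, 13.7 and 19.5 in humanized lists, a log2 difference of -1.10 (SE 0.21). An intergenic region near the telomere-binding gene Terf2 (chromosome 8, 107842475 to 107843291) had 31.6, 23.3 and 25.7 against 13.8, 10.6 and 12.9. A region at Kcnq3, a neuronal potassium channel gene (chromosome 15, 66155901 to 66157024), had 54.1, 46.2 and 37.6 against 19.4, 27.6 and 19.8. The other 4, near Fam89a, Fuca1, Nbas and Dlgap2, had log2 differences of 0.95, 0.93, -1.12 and -0.97. All 10 had an adjusted p of 0.983 in limma's fit.

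**Figure D5:**
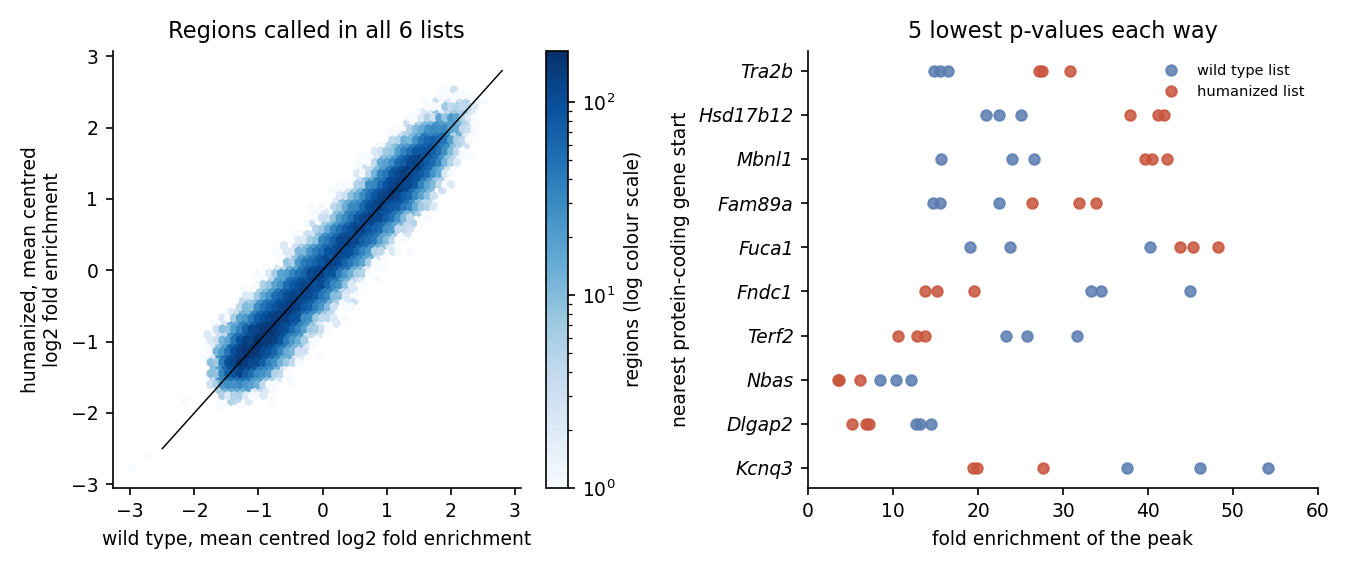
Mean centred log2 fold enrichment of the 38998 shared CTCF regions in humanized against wild type lists (left, colour on a log scale, line of equality), and fold enrichment in each list for the 5 regions with the lowest p in each direction (right). Most regions lie close to the line of equality, and the 10 regions at right, picked by their p-values, have an adjusted p of 0.983.

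At loci where CTCF is known to act, no region passed the test between genotypes. Over 15 such loci with 10 kb to either side, 79 of 150 regions (52.7%) were called in all lists and 1 was exclusive. Of all regions, 56.4% were called in all lists and 0.643% were exclusive. Of the 79, 1 (1.27%) had an unadjusted p under 0.05 in limma's fit, against 4.63% of all regions tested. At H19, the imprinted non-coding RNA whose control region insulates when bound by CTCF, both regions were called in all lists. The stronger had 28.3, 10.2 and 16.9 in wild type and 24.0, 19.7 and 23.1 in humanized lists, and the groups overlapped. The strongest region at Igf2, the growth factor gene insulated there, had 28.8, 24.7 and 28.1 against 24.9, 37.9 and 34.4. Of the Hox clusters, which pattern the body axis and are insulated by CTCF, Hoxa had 7 shared regions of 10, Hoxb 9 of 13 and Hoxd 9 of 12. The region with the low p lay in the Hoxd cluster (chromosome 2, 74516394 to 74517148), under H3K27me3 and in an exon where Hoxd11, Gm28309 and Gm74919 overlap. The region had 9.40, 12.8 and 12.4 in wild type and 18.1, 16.1 and 18.7 in humanized lists. It was singled out after its values had been seen.

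The clustered protocadherin genes, whose neuronal promoter choice uses CTCF, had 62 regions, of which 30 were called in all lists and 1 was humanized-only. The latter is the 1 exclusive region counted above. The humanized-only region lay 81 bp from a start of Pcdhb18, with 5.48, 5.12 and 4.68 in the humanized lists and a peak of 5.07 in the complete first wild type list. These genes are related in sequence and reads that map to several places were removed. What this did to their regions was not tested. At Firre, an X-linked locus with a tandem array of CTCF sites, 1 of 16 regions was called in all lists. The part of removed multi-mapping reads there was not tested either. At Xist, the RNA of X inactivation, 3 of 4 regions were called in all lists. Among the other loci, Meg3 had 3 shared regions, Grb10 4, Peg3 2, Tsix 5, Sox9 1, Myc 3 and the beta-globin locus 1. Kcnq1ot1 was not analysed here.

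Around 10 diencephalon transcription factor genes outside chromosome 13, 20 of 41 regions (48.8%) were called in all lists and 0 were exclusive, where 56.4% of all regions were called in all lists and 0.643% were exclusive. The strongest at Tcf7l2, which marks the thalamus, had 37.0, 35.7 and 23.1 in wild type and 24.3, 24.5 and 24.0 in humanized lists. Tcf7l2 had 5 shared regions, Gbx2 and Lhx9 had 3 and 2, and Otx2 and Zic1 had 0. At Gbx2, a thalamic gene, 1 region 9247 bp from the start (chromosome 1, 89849281 to 89850207) had an unadjusted p of 0.0439 in limma's fit. It was 1 of the 20 with an unadjusted p under 0.05 (5%), against 4.63% of all regions tested. Its values were 13.6, 7.09 and 6.05 against 11.8, 10.6 and 11.3, so the groups overlapped.

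No stretch of neighbouring sites passed the test between genotypes. Of 2936 windows of 500 kb with at least 5 shared regions, limma called 0 at an adjusted p under 0.05, and the lowest adjusted p was 0.783. At an unadjusted p under 0.05, 68 windows were higher and 62 lower (4.43%). The 5 with the lowest p held Mphosph6 (chromosome 8, a difference of 0.33 on the log2 scale), Lhfpl3 (chromosome 5, -0.31), Pex5l (chromosome 3, -0.30), Armc1, Mtfr1 and Pde7a (chromosome 3, 0.28) and no protein-coding gene (chromosome 18, 56000001 to 56500000, 0.37). The middle 90% of windows lay between -0.14 and 0.13. Windows on chromosome 19 that hold Btaf1, Ide and Hhex were looked at after other values had been seen. The differences of these windows were -0.02 and -0.08, with 14 and 11 regions. The study names copy-number variants of C57BL/6 mice on chromosome 19, and their overlap with these windows was not tested. Fold enrichment is a ratio over local background, so these values cannot decide on a change of copy number.

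Genes with a start within 1 kb of an exclusive region had no RNA difference that passed the test. Of 36 such genes at humanized-only regions 35 were tested, and of 29 at wild type-only regions 22 were tested. edgeR's quasi-likelihood test called 0 of them, and 0 of all 18763 genes, at an adjusted p under 0.05, where 207 genes (1.1%) had an unadjusted p under 0.05 and DESeq2 called 1. The number at an unadjusted p under 0.05 was 750 without the second wild type RNA library, 82 and 85 without the second and the fourth humanized RNA library, and between 194 and 301 without any other. Reads not counted on a single gene, unmapped reads included, made up 48.1% to 55.2% of wild type and 55.5% to 58.4% of humanized libraries. The genotypes did not overlap in this measure, and its part in the RNA values was not tested. The median log2 fold change was -0.04 for the first and -0.08 for the second, against -0.10 for 5070 genes at regions called in all lists and -0.03 for all genes. Without the first wild type RNA library these medians at exclusive regions were 0.0064 and 0.0010, and without the second library of that group the second median was 0.01, so their sign rested on single libraries. At an unadjusted p under 0.05 in edgeR's test, 1 of the 57 genes was counted, Plk3, a stress-responsive kinase gene at a humanized-only region. It had 23.1, 12.6, 14.8 and 14.2 CPM (counts scaled to library size) in wild type and 11.95, 11.7, 11.4 and 11.4 CPM in humanized libraries, with an adjusted p of 0.808.

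RNA of CTCF and its cohesin partners did not pass the test. Ctcf was at 153 ± 13.3 CPM (SD, n = 4) in humanized and 136 ± 13.7 CPM (SD, n = 4) in wild type libraries, a log2 fold change of 0.17. Of the 11 genes listed, 0 had an unadjusted p under 0.05 in edgeR's test. The subunits Rad21, Smc1a, Smc3, Stag1 and Stag2, the loader Nipbl and the release factors Wapl, Pds5a and Pds5b had log2 fold changes of 0.16 to 0.39, and the loader partner Mau2 had -0.08. The first wild type RNA library was the lowest of its group in the summed CPM of the list, at 969 CPM against 1519 to 1733 CPM, and its part in these values was not tested. It is a library of its own and shares only a number with the first wild type CTCF library.

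The RNA libraries held the markers of the labelled tissue. All 11 diencephalon markers were detected in both genotypes, and their summed level was 2001 to 2509 CPM in wild type and 2191 to 2560 CPM in humanized libraries. The hindbrain markers Hoxb2, Hoxb3 and Egr2 summed to at most 0.509 CPM, with Hoxb2 and Hoxb3 at 0 in all 8 libraries, and the liver markers Alb and Afp to at most 0.353 CPM. The cerebellar markers Pax2 and Atoh1 summed to at most 1.48 CPM. Choroid plexus markers Ttr and Folr1 summed to 137 to 284 CPM in wild type and 91.4 to 463 CPM in humanized libraries, and erythroid markers Hba-a1 and Hbb-bt to 48.6 to 233 and 53.1 to 105 CPM. In pooled tissue, fewer cells of a type and less RNA per cell cannot be told apart. The markers describe the RNA libraries, and the cell makeup of the CTCF libraries was not tested.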

How the data were processed

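CTCF, H3K4me3, H3K27ac and H3K27me3 ChIP-seq lists (3 per genotype and target) and RNA-seq counts (4 per genotype) of E17.5 diencephalon were used. For ChIP-seq, the authors aligned reads with Bowtie2 2.4.2 to mm39, or for humanized samples to an mm39 genome that carried the human sequence, removed multi-mapping and duplicate reads, and called peaks per replicate with MACS2 2.2.7.1. Each deposited list gives a peak's fold enrichment over local background, a ratio that is not scaled between lists, and its -log10 p-value and -log10 q-value. Read depth is unknown from such lists, and the q-value of a peak depends on depth. For RNA, the authors deposited unnormalized counts of reads per gene made with STAR 2.7.9a, 16414369 to 24272569 per library. Reads not counted on a single gene, unmapped reads included, were 48.1% to 58.4% and were left out.

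Chromosome 13 was left out, because the human sequence shifts its coordinates. Peaks were ranked within each list by -log10 q and the 52739 highest were merged. Of several peaks in a region, the highest fold enrichment was used. Marks needed 4 of 6 lists. Genes, exons and gene starts were taken from GENCODE annotation of GRCm39, the same build. Log2 fold enrichment was tested with limma 3.58.1 with a trended prior and Benjamini-Hochberg adjustment at 0.05, and windows on the mean of their regions. RNA was tested with edgeR 4.0.16 (filterByExpr, TMM, quasi-likelihood), with DESeq2 1.42.0 as an alternative. List measures were compared by two-sided exact permutation over 20 arrangements. Python 3.11.15, pandas 2.3.3, R 4.3.3 and matplotlib 3.10.9 were used. The fits and the merging were tested on simulated data. The deposited lists hold no read counts, so the study's count-based comparison of merged peaks was not repeated.

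Named regions were, by rule, the 10 exclusive regions per genotype and the 5 shared regions of highest mean fold enrichment, and the 5 regions and windows of lowest p. The members, gene lists and tests were chosen with earlier results of these data known, so no pattern here is independent of them. A further marker list is not reported here. Alternatives were all peaks, 26369 peaks per list, a -log10 q of at least 5, ranking by fold enrichment, a 50% overlap of the shorter peak, chromosome 13 upstream of the human sequence added, other centring, a block for the replicate number, and single libraries left out. The class shares at 26369 peaks per list were added after the data had been seen.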

Additional observations from a re-analysis of the deposited data

Results flagged for a closer look

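In groups of 4 RNA libraries, a library was singled out where its gap to the nearest other as a share of the group's range exceeded Dixon's 95% critical value, which chance does in about 1 in 20 groups. Of 58 groups of the listed genes, 8 were singled out, 7 of them by the first wild type RNA library. That library was highest for Gbx2 (gap 0.931 of the range, 50.8 CPM against 24.6 to 26.4), Lhx2 (0.843, 49.7 CPM against 28.2 to 31.6), Six3 (0.892, 131 CPM against 54.7 to 62.9) and Barhl2 (0.841, 14.6 CPM against 11.8 to 12.2). It was lowest for Lhx9 (0.882, 113 CPM against 241 to 258), Stag1 (0.945, 47.0 CPM against 126 to 131) and Pds5a (0.838, 36.6 CPM against 108 to 122). For Mau2 the first humanized RNA library was highest (0.942, 103 CPM against 91.5 to 92.1). Groups of 3, and so the CTCF lists, were not tested in this way.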

How the results depend on the processing

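Humanized-only and wild type-only regions numbered 179 and 266. They numbered 23 and 1089 with all peaks, 22 and 814 at a -log10 q of at least 5, and 56 and 60 with 26369 peaks per list, where 22183 regions were called in all lists. Leaving out a library gave 376 to 603 and 559 to 705, with fewer lists to decide a class, and 39656 to 41700 regions in all lists. Without the second humanized list, 55883 peaks per list were used in place of 52739. That setting gave 603 and 668, with 41700 in all lists, and the parts of fewer lists and more peaks were not separated. At regions called in all lists, the humanized minus wild type median fold enrichment was -1.33, and -2.33 to -0.12 without single libraries. The median over every peak of the complete lists, a different measure, differed by 1.04 (exact permutation p = 0.1). Those lists differ in length, so it cannot be set against the first measure. The core share differed by 0.191 percentage points, and by 2.69 over every peak of these unequal lists (exact permutation p = 0.1). Without single libraries the core difference ranged from 0.428 to -0.0537, reversed without the second wild type library. The part of list length was not tested. Without single libraries, the differences ranged from -13274 to -5077 peaks, 0.205 to 1.03 points at gene starts, 0.00948 to 0.0768 points on X and 0.000948 to 0.970 points for H3K27ac. In limma's fits 0 regions and 0 windows were called under every alternative run, replicate block included. Without centring the median region differed by -0.12, and at an unadjusted p under 0.05 there were 194 higher and 1762 lower regions against 950 and 854. Without single libraries these counts ran from 1197 and 588 (second wild type library left out) to 729 and 1155 (humanized library 3 left out). For RNA, DESeq2 called 1 gene, 4931408D14Rik, higher in the humanized mouse (adjusted p = 0.0189), and the other alternatives, leaving out each library included, called 0. Replicate numbers did not pair the CTCF libraries. Deviations of same-numbered libraries correlated at -0.00903 to 0.0101, and the replicate block called 0 regions, 0 windows and 0 genes (717 genes at an unadjusted p under 0.05, against 207). Depth, unknown from peak lists, limits what absence from a list means.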
